A study of Mus musculus with 8 samples.

Results

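Grid1 and Prkag3 are 2 of the 32285 genes counted in single nuclei of the mouse kidney, and 2 of its 21286 protein-coding genes. They were picked by name because they move in opposite directions with genotype, Grid1 up and Prkag3 down, so their genotype differences are given here as a description and carry no test. The question behind the comparison is what loss of the tubule's own circadian clock does to gene expression at 2 times of day. The account follows each gene through the classes of nuclei, the genotypes, the times of day, the relatives of its protein and its neighbours on the chromosome.

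Grid1 encodes GluD1, a delta subunit of the ionotropic glutamate receptor family. GluD1 is best known from neurons, where it sits at synapses and binds cerebellins, secreted proteins that in turn hold presynaptic neurexins. Prkag3 encodes the γ3 regulatory subunit of AMP-activated protein kinase (AMPK), the energy sensor of the cell, which is built from a catalytic α, a scaffolding β and a nucleotide-binding γ subunit. The γ3 form is best known from skeletal muscle. The proximal tubule, made of a convoluted part (PCT) and a straight part (PST), reabsorbs most of the filtered glucose, amino acids and bicarbonate and is a large consumer of cellular energy.

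In RefSeq on assembly GRCm38.p6, Grid1 spans chr14:34820003-35583387, a gene of 763385 bases, and Prkag3 spans chr1:74738922-74749471 on the minus strand, a gene of 10550 bases. In the newer GENCODE vM39 annotation, transcripts of Prkag3 reach into the 3′ end of Cyp27a1 on the opposite strand. The strand setting of counting was not given in the sources used here, and whether counting kept reads of such an overlap apart was not tested.

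The 8 libraries came from male mice on a C57BL/6J background, 2 animals for each of 4 groups. Control mice (Ctrl) carried floxed alleles, Bmal1 lox/lox. Knockout mice (cKOt) carried the same alleles plus the Pax8-rtTA and LC-1 transgenes, so that doxycycline switches on Cre recombinase where Pax8 is active, in the renal tubule. Both genotypes drank doxycycline at 2 mg/ml for 2 weeks from 8 weeks of age, and kidneys were taken 4 h (ZT4) or 16 h (ZT16) after lights on in a 12 h light phase. With 2 animals a group, every p-value measures the spread between these few animals.

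After filtering, 81391 of 82784 barcodes were kept, with 36548873 to 54500820 UMIs (unique molecular identifiers, each standing for 1 captured RNA) per library and a median of 3003.5 to 4830 UMIs per nucleus. Pairs of libraries shared 18 to 42 barcode sequences. Clusters were formed without Grid1 and Prkag3 and named by marker genes into 19 classes, 18 of which had at least 10 nuclei in each library. PCT held 22139 nuclei, 2431 to 3144 per library, and PST 3691. PST was the 2 proximal clusters with all PST markers raised, and PCT the other 11, of which 5 clusters (4, 13, 24, 26 and 31, with 8968 nuclei) scored higher for PST than for PCT markers. PCT clusters were shared unevenly. Clusters 13, 10 and 16 held most Ctrl nuclei (2154, 1953 and 1833) and clusters 4, 7 and 5 most cKOt nuclei (3443, 2313 and 1961). Some were close to 1 library, with 993 of 1008 nuclei of cluster 31 from cKOt at ZT4 replicate 2, 1052 of 1168 of cluster 24 from Ctrl at ZT16 replicate 1, and 1015 of 1094 of cluster 26 from Ctrl at ZT4 replicate 2. Arntl, the gene that encodes BMAL1, read 11 to 15.1 CPM in Ctrl PCT at ZT4, 192.9 to 208.6 in Ctrl at ZT16 and 210.8 to 323.5 in cKOt. Counts per gene do not show which exons were read, so they cannot check the deletion.

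A level below is the UMI sum of a gene over the nuclei of a class in 1 library, scaled to 1000000 protein-coding UMIs of that class with TMM factors (CPM), and levels of clusters or sets of clusters are scaled to their own UMIs without TMM factors. In Ctrl PCT, Grid1 stood at 60.3 and 71.3 CPM at ZT4 (replicates 1 and 2) and at 51.5 and 58.2 CPM at ZT16. In cKOt PCT it stood at 149 and 131 CPM at ZT4 and at 228 and 274 CPM at ZT16. All 4 cKOt libraries were above all 4 Ctrl libraries, and the cKOt libraries at ZT16 were above those at ZT4. Such a separation of genotypes was found upward in 2.48% and downward in 3.28% of the 14249 genes tested in PCT, and for Grid1 and Prkag3 it follows from how they were picked. The sums rest on 669 to 4024 Grid1 UMIs per library.

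Prkag3 moved the other way. In Ctrl PCT it stood at 20.8 and 21.2 CPM at ZT4 and at 48.0 and 42.7 CPM at ZT16. In cKOt PCT it stood at 7.93 and 3.60 CPM at ZT4 and at 7.09 and 2.57 CPM at ZT16. The lowest Ctrl library, at 20.8 CPM, was above the highest cKOt library, at 7.93 CPM. Within cKOt, replicate 1 was above replicate 2 at both times, and the 2 animals of a group differed more than the 2 times did. The sums rest on 254 to 809 UMIs in Ctrl and 35 to 125 in cKOt.

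**Figure D1:**
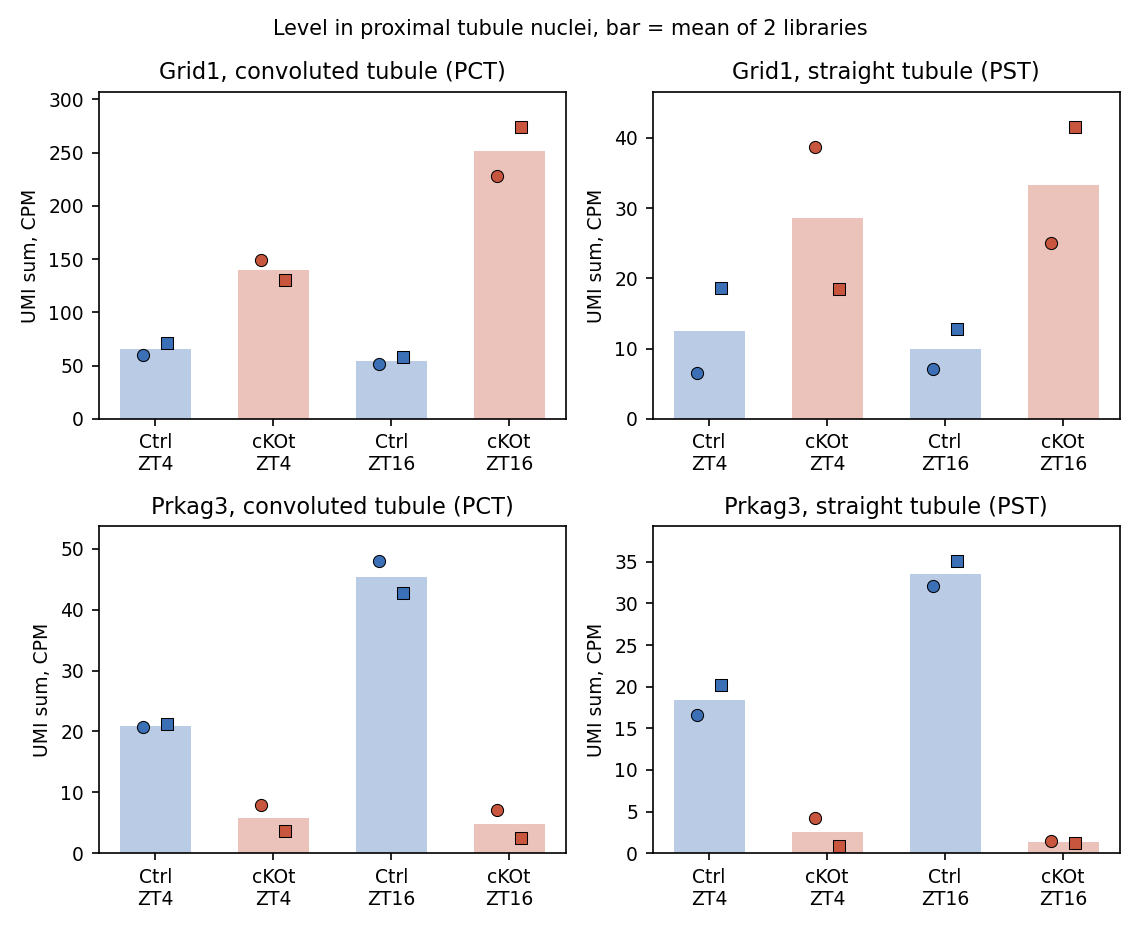
Level of Grid1 (top) and Prkag3 (bottom) in PCT (left) and PST (right) as CPM of the UMI sum, with 1 point per library (circle, replicate 1; square, replicate 2) and bars for the mean of the 2 libraries of a group. In PCT the cKOt libraries lie at 131 to 274 CPM for Grid1 against 51.5 to 71.3 in Ctrl, and at 2.57 to 7.93 CPM for Prkag3 against 20.8 to 48.0.

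As log2 fold changes of cKOt against Ctrl, Grid1 in PCT was higher by 1.09 ± 0.16 (SE) at ZT4, which is 2.13-fold, and by 2.2 ± 0.17 at ZT16, which is 4.58-fold. From the top, that placed it at rank 257 of 14024 genes at ZT4 and at rank 20 of 13918 at ZT16. Prkag3 had log2 fold changes of -1.87 ± 0.43 at ZT4, or 3.67-fold lower, and of -3.20 ± 0.44 at ZT16, or 9.20-fold lower. From the bottom, it held rank 63 at ZT4 and rank 9 at ZT16. The choice of both genes by this difference favours such ranks. The median of all genes was 0.005 at ZT4 and 0.013 at ZT16. Without cKOt at ZT4 replicate 2, the ZT4 values were 1.18 for Grid1 and -1.41 for Prkag3.

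Without cKOt at ZT4 replicate 1 the ZT4 value of Prkag3 was -2.55. At ZT16 it was -4.14 without cKOt replicate 1 and -2.68 without cKOt replicate 2. Prkag3 was lower in cKOt without any 1 of the 8 libraries, while the size of the difference depended on which cKOt animal was kept.

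The PST nuclei of the genotypes came mostly from different clusters, since cluster 15 held 135 Ctrl and 1892 cKOt nuclei and cluster 20 held 1629 Ctrl and 35 cKOt nuclei. In PST, Grid1 stood at 6.53 and 18.6 CPM in Ctrl at ZT4 and at 7.16 and 12.8 CPM in Ctrl at ZT16. In cKOt PST it stood at 38.8 and 18.5 CPM at ZT4 and at 25.1 and 41.5 CPM at ZT16. The genotypes overlapped at ZT4, where replicate 2 of Ctrl was level with replicate 2 of cKOt. The log2 fold changes were 1.10 ± 0.50 at ZT4 and 1.76 ± 0.50 at ZT16, and the ZT4 value ran from 0.47 without cKOt at ZT4 replicate 1 to 2.12 without Ctrl at ZT4 replicate 2.

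Prkag3 in PST stood at 16.6 and 20.2 CPM in Ctrl at ZT4 and at 32.1 and 35.1 CPM in Ctrl at ZT16. In cKOt PST it stood at 4.23 and 0.867 CPM at ZT4 and at 1.51 and 1.22 CPM at ZT16. Every cKOt library was below every Ctrl library, a separation found downward in 3.9% of the 12297 genes tested in PST and upward in 3.09%. The log2 fold changes were -2.92 ± 0.47 at ZT4 and -4.54 ± 0.48 at ZT16. The latter was at rank 2 from the bottom of 12015 genes, which the choice of the gene by this difference favours. The 4 cKOt sums rest on 25 Prkag3 UMIs in all, those at ZT16 on 10, so the gene passed the filter there through Ctrl. Without cKOt at ZT4 replicate 1 the ZT4 value was -4.36, and without replicate 2 it was -2.12.

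The share of PCT nuclei with at least 1 UMI moved with the level. For Grid1 it was 13.2% and 19.6% in Ctrl at ZT4, 15.3% and 13.5% in Ctrl at ZT16, 28.2% and 31.2% in cKOt at ZT4, and 42.8% and 42.1% in cKOt at ZT16. For Prkag3 it was 7.47% and 9.94% in Ctrl at ZT4, 21.9% and 15.8% in Ctrl at ZT16, 3.21% and 1.87% in cKOt at ZT4, and 3.68% and 1.10% in cKOt at ZT16. With each nucleus thinned to 1000 UMIs, which leaves out shallower nuclei, the Grid1 shares were 4.35% to 5.88% in Ctrl and 8.77% to 18.3% in cKOt, and the Prkag3 shares 2.06% to 4.62% in Ctrl and 0.233% to 0.788% in cKOt. The genotypes did not overlap in either gene, before or after thinning. Both genes were picked for a genotype difference, and the share of all genes apart on this measure was not computed. In vascular nuclei (Vasc), which should hold little of either RNA, 1.04% to 1.32% of Ctrl and 1.24% to 3.43% of cKOt nuclei had a Grid1 UMI, and 0.0687% to 0.548% of all libraries' nuclei a Prkag3 UMI, at a median of 2076 UMIs per nucleus against 5598 in PCT.

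Time of day was not used to pick the genes and was tested with edgeR's quasi-likelihood test. The p-values were adjusted by Benjamini-Hochberg over all genes tested in a contrast. Time contrasts use the same group sums as the genotype difference, so they are not independent of the choice of genes. In Ctrl PCT, Prkag3 had a log2 difference of 1.11 ± 0.40 at ZT16 against ZT4 (edgeR, adjusted p = 0.339), with both ZT16 libraries above both ZT4 libraries. In cKOt PCT its difference was -0.21 ± 0.46 (adjusted p = 0.952), and this value became 0.31 without cKOt at ZT16 replicate 2 and 0.46 without cKOt at ZT4 replicate 1. In Ctrl PST the difference was 0.85 ± 0.35 (adjusted p = 0.704), again with both ZT16 libraries above both ZT4 libraries. In cKOt PST, Prkag3 had too few counts for the filter and was not tested. None of these differences passed the threshold. The share of all genes with both libraries of a time above both of the other was not computed.

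In PCT, the estimated time difference of Grid1 was larger in cKOt than in Ctrl. The genotype by time interaction, given below, was called there by neither edgeR nor DESeq2. In cKOt the log2 difference of Grid1 was 0.84 ± 0.16 at ZT16 against ZT4 (edgeR, adjusted p = 0.201). Both ZT16 libraries were above both ZT4 libraries, an order whose share over all genes was not computed. By DESeq2 the same difference passed, with an adjusted p of 0.0138. In Ctrl PCT the difference was -0.26 ± 0.16 (adjusted p = 0.586). In PST it was 0.21 ± 0.46 in cKOt (adjusted p = 0.999) and -0.45 ± 0.54 in Ctrl (adjusted p = 0.915). Both PST values changed sign with 1 library left out, to 0.56 in Ctrl without Ctrl at ZT4 replicate 2 and to -0.25 in cKOt without cKOt at ZT4 replicate 2, so no order of size is read from them. Over the alternatives tried, the adjusted p of the cKOt PCT difference ran from 0.0138 to 0.712.

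Whether the genotype difference itself differed between the times was tested as an interaction. It sets the genotype difference at ZT16 against that at ZT4, so picking the genes by genotype can bear on it, by edgeR or DESeq2 alike. For Grid1 in PCT the log2 interaction was 1.11 ± 0.23 (edgeR, adjusted p = 0.528), and by DESeq2, which called 0.246% of all genes, the adjusted p was 0.0749. For Prkag3 in PCT it was -1.33 ± 0.61 (edgeR, adjusted p = 1.0), and it was -2.27 without cKOt at ZT16 replicate 1 and -0.65 without cKOt at ZT4 replicate 1. The larger genotype differences at ZT16 were thus not shown to differ from those at ZT4 by edgeR. As background, edgeR called 0.51% of 13934 genes between the times in Ctrl PCT, 0.0% of 14010 in cKOt PCT, where 1128 had an unadjusted p under 0.05 and DESeq2 called 0.749%, and 0.0351% of 14249 for the interaction. In PST it called 0.0336% of 11917 genes between the times in Ctrl and 0.0% in cKOt and for the interaction.

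Summed over all nuclei, the genotype differences were 1.06 ± 0.12 at ZT4 and 2.21 ± 0.13 at ZT16 for Grid1, and -1.77 ± 0.45 and -2.81 ± 0.46 for Prkag3. Proximal nuclei held 74.2% to 86.7% of the Grid1 UMIs of a library and 61.3% to 89.2% of its Prkag3 UMIs. In such sums, fewer nuclei of a type and less RNA per nucleus cannot be told apart. Between the times, Grid1 differed by -0.42 ± 0.12 in Ctrl (edgeR, adjusted p = 0.304) and by 0.73 ± 0.12 in cKOt (adjusted p = 0.145), and neither passed by edgeR. By DESeq2 the difference in cKOt passed (adjusted p = 0.00112), as did the interaction, 1.14 (adjusted p = 0.000478), beside 1.02% and 0.294% of all genes called by it, while by edgeR the interaction was 1.15 ± 0.17 (adjusted p = 0.184). Of all genes summed this way, edgeR called 0.446% of 16145 between genotypes at ZT4 and 0.174% of 16094 at ZT16, 0.142% of 16165 between the times in Ctrl, 0.0% of 16069 in cKOt and 0.0183% of 16351 for the interaction.

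By class, Grid1 was highest in PCT among the 18 named classes of Ctrl, at 60.3 ± 8.2 CPM (SD, n = 4 libraries). Smooth muscle and juxtaglomerular cells (SMC/JGC) followed at 28.2 ± 23.4 CPM, from 21 UMIs in all and between 0 and 56.5 CPM, so that their range overlapped with that of PCT. PST came next at 11.3 ± 5.6 CPM, and each class below it overlapped with the next in the order. In cKOt, PCT stood at 196 ± 67 CPM and PST at 31.0 ± 11 CPM, and only PCT was clear of its neighbour in the order. Lower than in Ctrl were SMC/JGC, at 14.1 ± 11.5 CPM from 11 UMIs, and the urothelium, at 5.43 ± 5.0 against 6.74 ± 5.4 CPM. The macula densa held 0 UMIs against 1 in Ctrl.

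Prkag3 in Ctrl was highest in PCT at 33.2 ± 14.2 CPM and in PST at 26.0 ± 9.0 CPM, which overlapped each other. Podocytes (Podo) followed at 9.37 ± 11.3 CPM from 8 UMIs in all, and mesangial cells and pericytes (Mes/Per) came after them at 5.94 ± 2.01 CPM from 68 UMIs. In cKOt, PCT stood at 5.30 ± 2.61 CPM, Mes/Per at 3.76 ± 1.85 CPM and PST at 1.96 ± 1.54 CPM, and all of these ranges overlapped. PST was thus at rank 2 of 18 classes in Ctrl and at rank 5 in cKOt.

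Prkag3 in Mes/Per, the class outside the tubule with most UMIs of it, was also read by library. Its levels were 5.76 and 4.65 CPM in Ctrl at ZT4, 4.52 and 8.84 CPM in Ctrl at ZT16, 4.48 and 1.76 CPM in cKOt at ZT4, and 5.98 and 2.84 CPM in cKOt at ZT16. The genotypes overlapped, with log2 fold changes of -0.74 ± 0.60 at ZT4 and -0.56 ± 0.51 at ZT16. In Vasc Prkag3 at ZT16 was 1.56 to 2.43 CPM in Ctrl and 0.343 to 0.642 CPM in cKOt (-1.94 ± 0.72). In the thick ascending limb it was 1.53 to 3.13 and 0.578 to 0.972 CPM (-1.64 ± 0.64). These rest on 14 and 27 UMIs in Ctrl and 3 and 7 in cKOt. At ZT4 both classes had too few counts for the filter, with values of -1.67 ± 0.76 and 0.047 ± 1.38. Grid1 in Mes/Per was 3.84 and 5.23 CPM in Ctrl at ZT4, 4.24 and 5.90 CPM in Ctrl at ZT16, 7.46 and 8.36 CPM in cKOt at ZT4, and 16.88 and 17.01 CPM in cKOt at ZT16. Here the genotypes did not overlap, with log2 fold changes of 0.76 ± 0.38 at ZT4 and 1.75 ± 0.32 at ZT16. No share of all genes apart in this way was computed for Mes/Per. The level of 6 PCT markers in Mes/Per was 8.43% to 11.3% of their PCT level (median over the markers in each library). Adra1a was highest among them, at 16.8% to 30.1% with a median of 26.3%. Prkag3 in Mes/Per was 9.34% to 26.5% of its PCT level in Ctrl and 49.0% to 114% in cKOt, where its PCT level was lower. Over all libraries its median was 37.8%. Grid1 in Mes/Per was 4.93% to 10.5% of its PCT level, and in Vasc 4.74% to 11.3%, where the markers gave 6.94% to 10.5%. Grid1 was also higher in cKOt at ZT16 in Vasc (5.93 and 6.54 CPM in Ctrl, 16.1 and 15.1 CPM in cKOt) and in the thick ascending limb (TAL; 2.66 and 2.63 CPM in Ctrl, 6.17 and 10.5 CPM in cKOt), with log2 fold changes of 1.32 ± 0.29 and 1.62 ± 0.38. At ZT4 they were 0.36 ± 0.31 in Vasc (6.47 and 6.41 CPM in Ctrl, 7.04 and 9.22 CPM in cKOt) and 1.17 ± 0.44 in TAL (2.10 and 2.55 CPM in Ctrl, 4.70 and 5.91 CPM in cKOt). In classes with 1 to 20 Grid1 UMIs per library the log2 fold change at ZT16 was 2.05 ± 0.75 in myeloid cells, 2.22 ± 0.69 in the connecting tubule, 2.28 ± 0.66 in the distal convoluted tubule and 2.47 ± 0.63 in the thin descending limb. At ZT4 it was 1.118 ± 0.70, 0.58 ± 0.81, -0.71 ± 0.65 and -0.41 ± 0.80 in the same order. Relative to PCT of the same library, Grid1 in TAL was 2.73% to 5.04%, where the markers gave 4.83% to 6.65%. The part of free RNA from broken cells in the values of either gene outside the proximal tubule was not tested further.

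**Figure D2:**
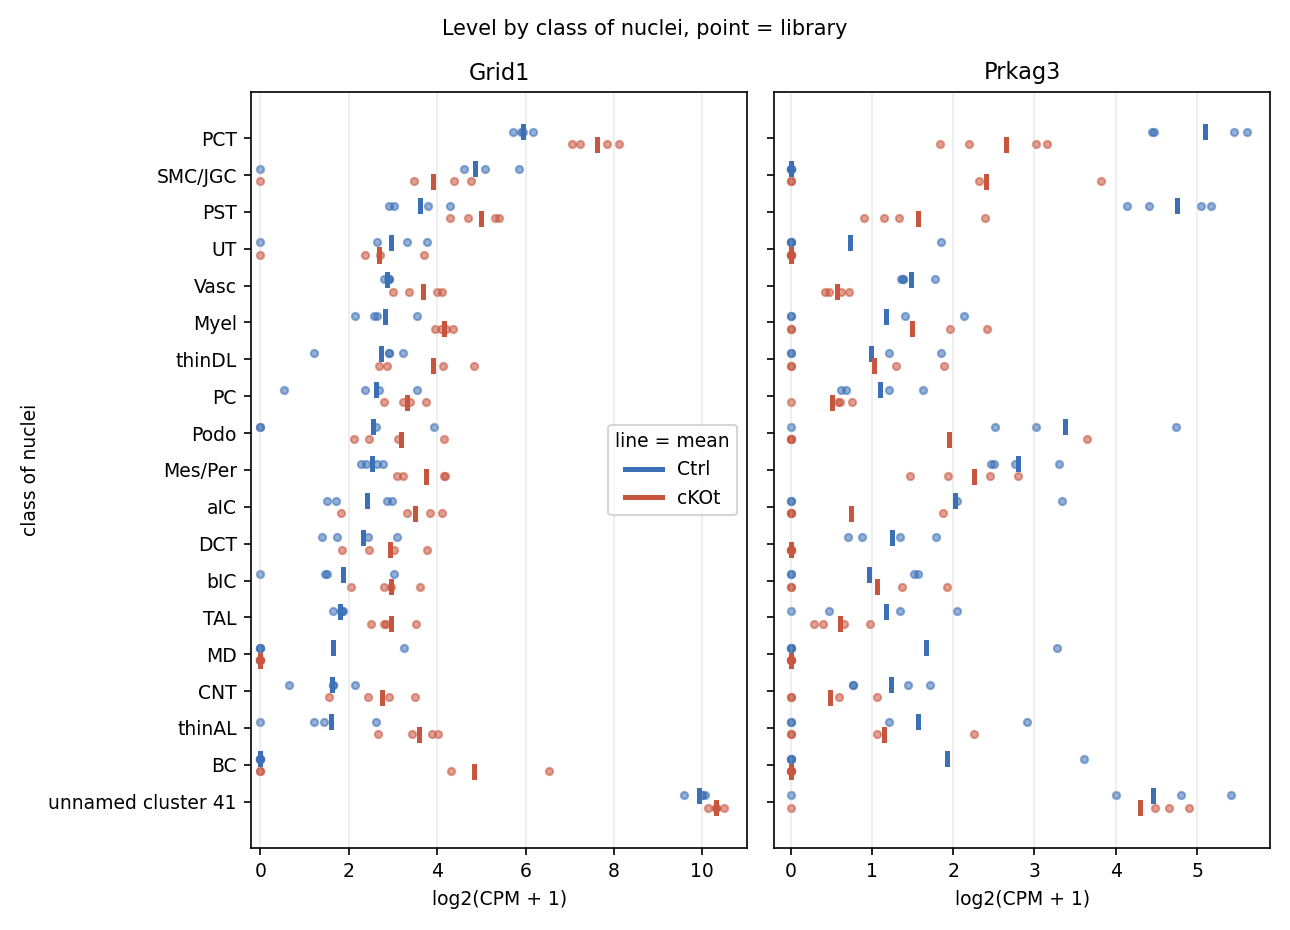
Level of Grid1 (left) and Prkag3 (right) as log2(CPM + 1) in the 18 named classes and in unnamed cluster 41, with 1 point per library and a line at the mean of the 4 libraries of a genotype. Classes are in the order of Grid1 in Ctrl, and cluster 41 is scaled without TMM factors. The PC class holds a cluster whose leading genes include a marker of the connecting tubule class and none of PC. Grid1 in PC had log2 fold changes of cKOt against Ctrl of -0.169 ± 0.614 at ZT4 and 2.105 ± 0.668 at ZT16. Cluster 41, at 762 to 1430 CPM of Grid1, lies above every named class.

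The highest Grid1 of any cluster was outside the named classes. Cluster 41 held 318 nuclei, 35 to 49 per library, and stayed unnamed because too few of the listed markers were high in it. Among its leading genes were Kcnmb2, Wnt16, Ptchd4 and Nkain3, and no marker of PCT or PST was raised in it. Grid1 stood at 1070 and 1020 CPM in Ctrl at ZT4, 1010 and 762 CPM in Ctrl at ZT16, 1270 and 1120 CPM in cKOt at ZT4, and 1260 and 1430 CPM in cKOt at ZT16, here without TMM factors. All 8 libraries were above every PCT library. A Grid1 UMI was seen in 74.3% to 86.0% of its nuclei, and each sum rests on 73 to 177 UMIs. Pooled over libraries, Grid1 was 984 CPM in Ctrl and 1270 CPM in cKOt. The next cluster was PCT cluster 5 in Ctrl, at 145 CPM, and PCT cluster 7 in cKOt, at 400 CPM. Prkag3 in cluster 41 was 18.6 CPM in Ctrl and 18.8 CPM in cKOt, from 10 and 9 UMIs.

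Within PCT, summed over each set, the 2 genes were higher in the 5 clusters with PCT markers and no PST marker raised (5, 7, 10, 11 and 16) than in the other 6 (4, 13, 24, 26, 30 and 31). Of these 6, 5 scored higher for PST markers. Single clusters did not all follow. Pooled over libraries, Grid1 was 106 CPM in Ctrl and 196 in cKOt in cluster 30, against 79.4 and 138 in cluster 10. Prkag3 was 43.5 and 4.85 CPM in cluster 30, against 42.8 and 2.12 in cluster 10. Grid1 in the 5 stood at 93.2 to 116 CPM in Ctrl and 191 to 437 CPM in cKOt, and in the 6 at 16.5 to 33.4 CPM in Ctrl and 61.2 to 140 CPM in cKOt. Prkag3 in the 5 stood at 31.1 to 84.4 CPM in Ctrl and 4.09 to 13.9 CPM in cKOt, and in the 6 at 7.23 to 29.9 CPM in Ctrl and 1.23 to 3.86 CPM in cKOt. The genotypes did not overlap in either set of clusters, whose nuclei came from the genotypes in unequal shares. How many of all genes were apart in these sets was not computed. The 6 clusters held 40.1% to 53.1% of PCT nuclei per library, in overlapping ranges for the genotypes.

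Because clusters were shared unevenly between genotypes, the levels were also read within single clusters. Cluster 5, led by Col8a1, Slc34a3 and Slc7a8, held nuclei of all 8 libraries, 59 to 1174 each. Grid1 in it was 165 and 149 CPM in Ctrl at ZT4, 104 and 152 CPM in Ctrl at ZT16, 256 and 349 CPM in cKOt at ZT4, and 479 and 423 CPM in cKOt at ZT16. Prkag3 in it was 63.9 and 78.8 CPM in Ctrl at ZT4, 140 and 126 CPM in Ctrl at ZT16, 17.4 and 14.7 CPM in cKOt at ZT4, and 17.5 and 12.9 CPM in cKOt at ZT16. The genotypes were apart in both genes in this cluster. In cluster 11, where cKOt at ZT4 replicate 2 had 955 nuclei, that library had 213 CPM of Grid1 and 6.65 CPM of Prkag3, against 108 to 203 CPM and 41.7 to 101 CPM in the 4 Ctrl libraries. Of the 8 PCT clusters in which both genotypes had a library of at least 20 nuclei, the genotypes were apart in 6 for Grid1 and in 7 for Prkag3. The share of all genes apart in single clusters was not computed, and both genes were picked for a genotype difference. In clusters 4, 10, 16 and 24 a genotype had a single such library. For Prkag3 the cKOt side of cluster 16 was 0 UMIs in 21 nuclei and that of cluster 24 was 1 UMI in 21 nuclei, and the Ctrl side of cluster 4 was 3 UMIs in 46 nuclei, which is too few to rest a separation on. For Grid1 the cKOt side of cluster 16 was 18 UMIs in 21 nuclei. Grid1 crossed in cluster 4, where the single Ctrl library of 46 nuclei had 99.6 CPM and the 4 cKOt libraries 52.5 to 162 CPM, and in cluster 24, where a Ctrl library had 68.4 CPM and the single cKOt library of 21 nuclei 61.6 CPM. Prkag3 crossed in cluster 30, where a Ctrl library of 25 nuclei had 10.9 CPM and a cKOt library of 27 nuclei 30.6 CPM. In PST cluster 15 Grid1 crossed as well, with a Ctrl library at 23.9 CPM and a cKOt library at 17.5 CPM.

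**Figure D3:**
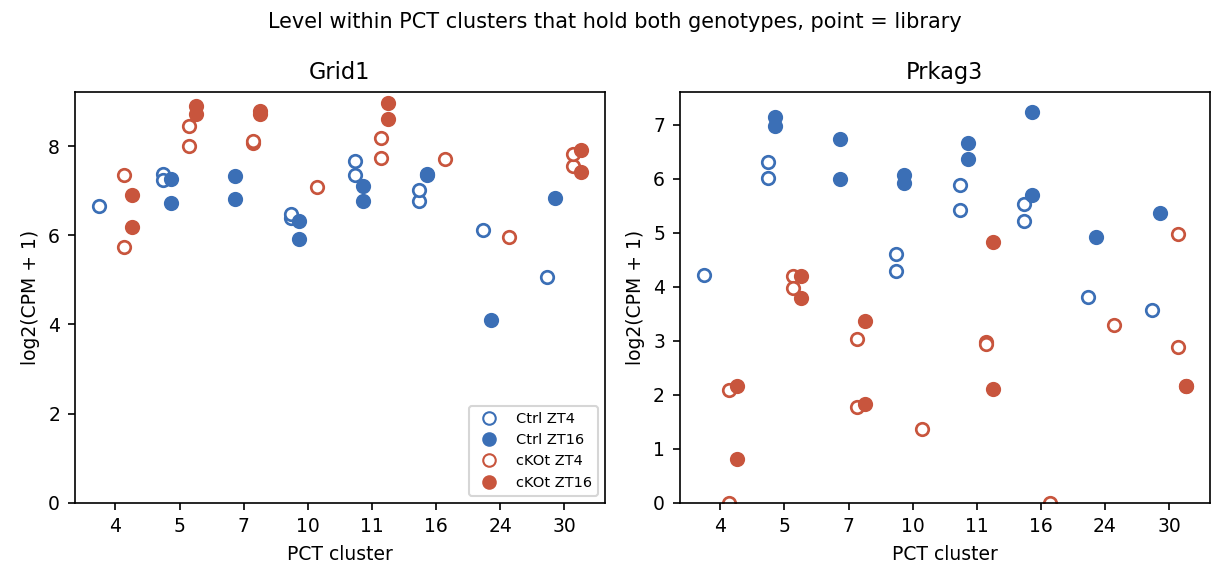
Level of Grid1 (left) and Prkag3 (right) as log2(CPM + 1) within the 8 PCT clusters that hold both genotypes, with 1 point per library that had at least 20 nuclei in the cluster (open, ZT4; filled, ZT16). Ctrl and cKOt points cross in clusters 4 and 24 for Grid1 and in cluster 30 for Prkag3, and are apart in the others drawn.

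Both genes were also read in the same nucleus. In PCT, 0.631% to 3.65% of nuclei per library held a UMI of each. Among nuclei with a Prkag3 UMI, 14.8% to 26.5% also had a Grid1 UMI in Ctrl and 40.6% to 58.3% in cKOt. In each library this was above the Grid1 share of all its PCT nuclei, whose mean was 15.4% in Ctrl and 36.1% in cKOt. The part of depth per nucleus in this was not tested. Over the 8 PCT sums the log2(CPM + 1) of the 2 genes had a Pearson r of -0.906, and over the 18 classes of Ctrl it was 0.573. These are descriptions, since the 8 sums share the genotype split by which the genes were picked, and classes of a library share its free RNA.

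The other subunits of AMPK were tested for the genotype difference in PCT, and none of the 6 was called at either time by edgeR or DESeq2 (1 had an unadjusted edgeR p under 0.05 at each time). Over all genes, 0.827% of 14024 were called at ZT4 and 0.309% of 13918 at ZT16. Prkag2, the γ2 subunit, stood at 492 to 654 CPM in the 8 libraries. It had the largest difference at ZT16, 0.37 ± 0.14 (edgeR, adjusted p = 0.546). Both cKOt libraries were above both Ctrl libraries there, an order whose share over all genes was not computed. Prkaa1, the α1 catalytic subunit, had 0.39 ± 0.15 at ZT4 (adjusted p = 0.459). Prkaa2, the other catalytic subunit, Prkab1 and Prkab2, the scaffolds, and Prkag1, the γ1 subunit, had log2 differences between -0.32 and 0.24 at the 2 times. The median of the 6 was -0.056 at ZT4 and 0.221 at ZT16. In PST all 6 were tested and none was called by either tool (0 had an unadjusted edgeR p under 0.05), beside 0.524% of 11842 genes at ZT4 and 0.591% of 12015 at ZT16 by edgeR and 0.904% and 1.19% by DESeq2.

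Around AMPK, 11 of 12 regulators, such as the kinases and folliculin-complex members that switch it on or off, were tested in PCT and none was called by edgeR (lowest adjusted p 0.756 at ZT4 and 0.504 at ZT16) or by DESeq2. By edgeR 0 had an unadjusted p under 0.05 at ZT4 and 1 at ZT16. All 19 listed targets, such as acetyl-CoA carboxylases and glycogen synthases, were tested and none was called by edgeR, with lowest adjusted p of 0.0524 at ZT4 and 0.0679 at ZT16 and 2 and 4 genes at an unadjusted p under 0.05. DESeq2, which called 2.21% of all genes at ZT4 and 1.4% at ZT16, called Pfkfb3 and Gys2 at ZT4 and Pfkfb3 at ZT16. Pfkfb3, which makes an activator of glycolysis, stood at 42.8 and 50.4 CPM in Ctrl and 25.8 and 19.6 CPM in cKOt at ZT4, and at 40.9 and 63.3 CPM in Ctrl and 18.2 and 21.7 CPM in cKOt at ZT16. Its log2 difference was -1.04 ± 0.24 at ZT4 and -1.39 ± 0.24 at ZT16 (edgeR, adjusted p = 0.119 and 0.0679), and edgeR called it at ZT16 without cKOt at ZT4 replicate 1 or 2 or Ctrl at ZT16 replicate 1. Gys2, the liver form of glycogen synthase, stood at 16.8 to 17.6 CPM in Ctrl and 7.51 to 10.4 CPM in cKOt, with -1.03 ± 0.19 at ZT4 (edgeR, adjusted p = 0.0524). In both genes all 4 cKOt libraries were below all 4 Ctrl libraries, as in 3.28% of the 14249 genes tested in PCT. The median of the targets was 0.021 at ZT4 and -0.075 at ZT16.

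Of the 17 other ionotropic glutamate receptor genes, 12 could be tested in PCT at ZT4 and 13 at ZT16, and none was called by edgeR or DESeq2 (1 and 2 had an unadjusted edgeR p under 0.05), with medians of -0.204 and 0.160. Of 9 partners of delta receptors, the cerebellins, neurexins and binding proteins, 4 could be tested and none was called by either tool (1 at ZT4 and 0 at ZT16 had an unadjusted edgeR p under 0.05).

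The genes next to each on the chromosome were read in the same way. Of the 10 nearest to Grid1, Bmpr1a, Ldb3, Wapl and Ccser2 were tested in PCT, with log2 differences between -0.17 and 0.32, and none was called by edgeR or DESeq2 (0 had an unadjusted edgeR p under 0.05 at either time). Of the 10 nearest to Prkag3, Bcs1l, Rnf25, Stk36, Ttll4 and Cyp27a1 were tested, and none was called in PCT by either tool (0 at ZT4 and 1 at ZT16, Cyp27a1, had an unadjusted edgeR p under 0.05).

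In PST, Cyp27a1, which encodes the mitochondrial sterol 27-hydroxylase and lies directly beside Prkag3, fell in cKOt at ZT16. Its levels there were 49.9 and 36.2 CPM in Ctrl and 14.5 and 10.2 CPM in cKOt, and at ZT4 they were 32.6 and 46.7 CPM in Ctrl and 19.4 and 17.3 CPM in cKOt. All 4 cKOt libraries were below all 4 Ctrl libraries, as in 3.9% of the 12297 genes tested in PST. Cyp27a1 was the 1 gene (1.39%) of 72 list genes tested in PST that edgeR called at ZT16, beside 0.591% of all genes. The log2 difference was -1.78 ± 0.28 at ZT16 (edgeR, adjusted p = 0.0186) and -1.13 at ZT4, where it was not called (adjusted p = 0.164). Without Ctrl at ZT16 replicate 1 the ZT16 call was lost (adjusted p = 0.175), as it was without cKOt replicate 1 (adjusted p = 0.111) or replicate 2 (adjusted p = 0.196). In PCT the differences were -0.30 ± 0.20 at ZT4 and -0.67 ± 0.20 at ZT16 (adjusted p = 0.78 and 0.363). The part of the overlap with Prkag3 in these counts was not tested.

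**Figure D4:**
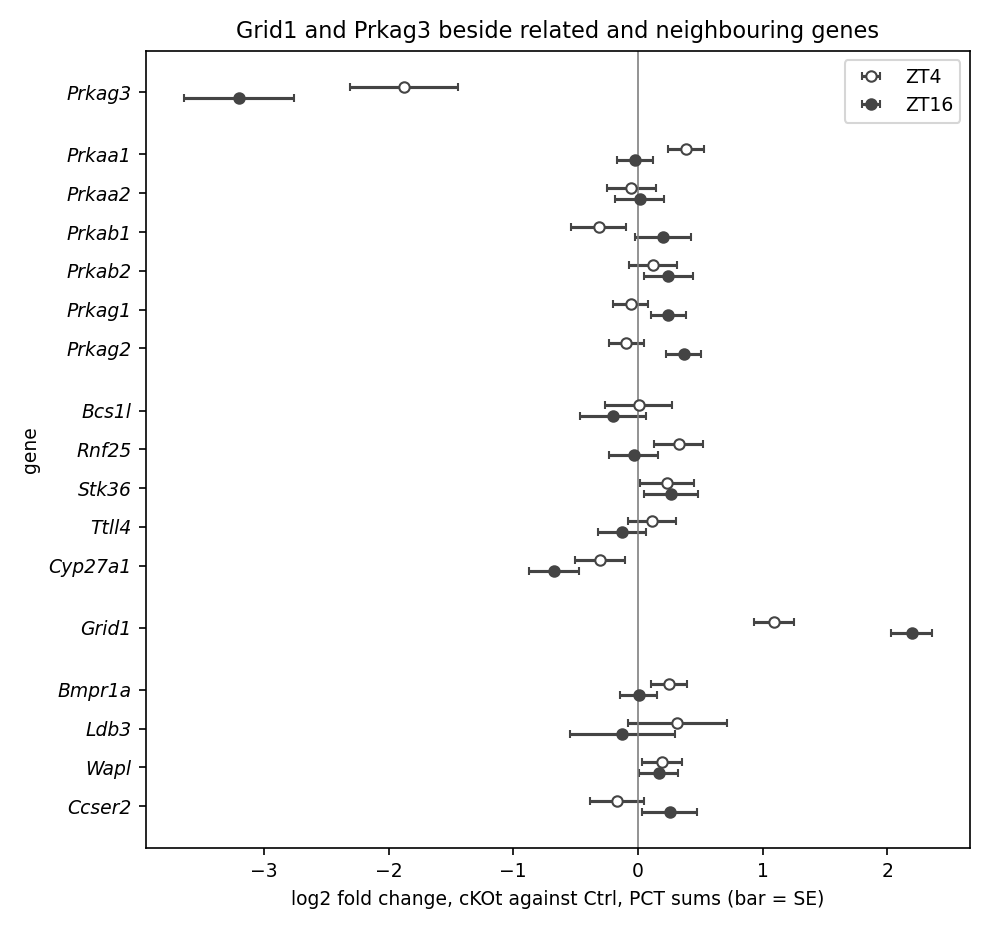
Log2 fold change of cKOt against Ctrl in PCT at ZT4 (open) and ZT16 (filled), with bars for the SE, for Prkag3, the other AMPK subunits, the tested neighbours of Prkag3, Grid1 and the tested neighbours of Grid1. Prkag3 at -1.87 and -3.20 and Grid1 at 1.09 and 2.2 lie outside the range of the other genes drawn, -0.67 to 0.39. Grid1 and Prkag3 were picked for their genotype difference and the other genes were not, so such a gap follows from the choice.

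Markers of the tubule segments and of injury were read beside the 2 genes. Summed over 5 markers, S1 segment genes were at 4378 and 4623 CPM in Ctrl PCT at ZT4, 4077 and 4684 in cKOt at ZT4, 2934 and 2770 in Ctrl at ZT16, and 3607 and 4497 in cKOt at ZT16. The S2/S3 sum, over 6 markers, was 4388 and 5540 CPM in Ctrl and 3018 and 4094 in cKOt at ZT4, and 3886 and 4378 in Ctrl and 3249 and 3059 in cKOt at ZT16, lower in cKOt at both times. By edgeR none of the 5 S1 genes and none of the 6 S2/S3 genes was called between genotypes in PCT or PST. In PCT, 1 and 3 S1 genes and 2 and 2 S2/S3 genes had an unadjusted p under 0.05 at ZT4 and ZT16, and in PST 0 and 3, and 1 and 1. DESeq2 called Slc7a8, an amino acid carrier of the S1 list, and Cyp7b1, an oxysterol hydroxylase of the S2/S3 list, in PCT at ZT16, and Cyp7b1 in PST at ZT16, where it called 1.19% of all genes. By edgeR their log2 differences in PCT at ZT16 were 1.17 ± 0.24 and 1.51 ± 0.32 (adjusted p = 0.137 and 0.141). Slc6a19, an apical carrier of neutral amino acids, fell from ZT4 to ZT16 in Ctrl PCT, by 1.43 on the log2 scale (edgeR, adjusted p = 0.0394), and the call was lost without any of 6 single libraries (both of Ctrl at ZT4, both of Ctrl at ZT16 and both of cKOt at ZT16). Both ZT16 libraries of cKOt were above both of Ctrl in the S1 sum. The part of segment content in the values of Grid1 and Prkag3 was not tested.

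Injury genes summed to 66.8 to 103 CPM in Ctrl PCT and 69.8 to 163 CPM in cKOt PCT, overlapping. Havcr1, the injury marker KIM-1, was at 0.0818 to 0.66 CPM in the 8 libraries. Dcdc2a, a doublecortin-domain protein that binds microtubules, was the 1 gene (1.3%) of the 77 tested from all 10 lists that edgeR called in PCT at ZT4, beside 0.827% of all genes. DESeq2 called 3 of the 77, the others being Pfkfb3 and Gys2, beside 2.21% of all genes. Dcdc2a stood at 13.3 and 11.6 CPM in Ctrl and 49.4 and 84.7 CPM in cKOt at ZT4, and at 17.4 and 24.9 CPM in Ctrl and 32.5 and 59.4 CPM in cKOt at ZT16. It rose by 2.43 ± 0.36 at ZT4 (edgeR, adjusted p = 0.0239), and the call was lost without Ctrl at ZT4 replicate 1 (adjusted p = 0.142) or replicate 2 (adjusted p = 0.176). At ZT16 none of the 77 was called in PCT by edgeR and 4 by DESeq2, namely Pfkfb3, Cyp7b1, Dcdc2a and Slc7a8, beside 1.4% of all genes by DESeq2.

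The genes whose PCT level ran most like each of the 2 were picked by the highest Pearson r of log2(CPM + 1) over the 8 sums among 14248 genes. For Grid1 they were Nckap5 (r = 0.986), Pcsk2 (0.980), Plod2 (0.974), Fhad1 (0.967) and Hid1 (0.956). Nckap5 stood at 78.1 to 121 CPM in Ctrl and 427 to 783 CPM in cKOt, Plod2, a collagen lysyl hydroxylase, at 29.2 to 46.3 and 75.4 to 126 CPM, and Fhad1 at 1.3 to 2.21 and 32.4 to 72.4 CPM. Pcsk2, a prohormone convertase, stood at 1.13 to 2.44 CPM in Ctrl and 4.13 to 8.36 CPM in cKOt, and Hid1 was below 1 CPM in all libraries, at 0.164 to 0.367. In each of the 5 the cKOt libraries lay above the Ctrl libraries, as in 2.48% of the 14249 genes tested in PCT. Picking them by likeness to Grid1, whose 8 sums split by genotype, favours such a split.

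For Prkag3 they were Rgl3 (r = 0.980), Gusb (0.973), Dgkb (0.965), Tmcc3 (0.963) and Kif5a (0.960). Dgkb, a diacylglycerol kinase, was at 44.3 to 101 CPM in Ctrl and 24.1 to 37.8 CPM in cKOt, with both Ctrl libraries at ZT16 above both at ZT4. Gusb, the lysosomal β-glucuronidase, was at 13.7 to 19.6 CPM in Ctrl and 9.02 to 13.2 CPM in cKOt. Rgl3 moved over a narrow range, 71.5 to 73.7 CPM in Ctrl and 62.3 to 66.5 CPM in cKOt. Tmcc3 was at 120 to 144 and 94.4 to 105 CPM, and Kif5a, a kinesin motor, at 32.4 to 38.2 and 14.5 to 23.9 CPM. The 8 points split by genotype, which the choice of both genes used.

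Over the 18 classes of Ctrl, among 16164 genes, the patterns most like that of Grid1 were those of Slc25a15 (r = 0.903), Cntnap5a (0.9), Trim63 (0.877), Prnp (0.868) and Cndp1 (0.867). For Prkag3 they were Alk (r = 0.934), Olfr1392 (0.920), Hsd3b3 (0.909), Ces3a (0.908) and Fgf10 (0.907). These correlations rest on classes of unequal depth, some of which held 0 or 1 UMI of the gene over the 4 Ctrl libraries.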

How the data were processed

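Nuclei of 8 kidneys were sequenced on a droplet platform. The deposited values are UMI counts per gene and nucleus, made by the authors with Cell Ranger 7.1.0. The submitters' processing notes name build GRCm39. The study's results name GRCm39 as well, while its methods name a GRCm38 reference. A strand setting was found in none of them. Gene positions are from RefSeq on GRCm38.p6.

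Filters of 500 genes and 800 UMIs as minimum and 2% mitochondrial UMIs as maximum left 8758 to 10975 nuclei per library. Doublets were called (5.37%) and kept. Clusters came from Seurat 5.3.0 (2000 variable genes without Grid1 and Prkag3, 1000 principal components, 20 neighbours, resolution 2.2). A cluster outside the proximal tubule took the class with its highest marker score where that score was at least 0.9, at least 3 markers were 2-fold up in 10% of nuclei and under 50% of nuclei were called doublets. The doublet limit left 2 clusters unnamed that met the other terms. A cluster scoring highest for PCT or PST needed 3 of 13 proximal markers up and the same doublet limit, and was PST where all PST markers were up and PCT otherwise, whichever score was higher. This naming rule was set after the clusters were seen. It gave 42 of 50 clusters a name and covered 95.054% of nuclei, and other names would change the class values.

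Counts of protein-coding genes were summed per class and library and fitted in 1 model of the 4 groups with edgeR 4.0.16 (R 4.3.3), TMM scaling and the quasi-likelihood test. A gene was tested where both libraries of 1 of the groups compared held 5 counts or more, and adjusted p under 0.05 (Benjamini-Hochberg) was the threshold. On simulated PCT counts at ZT4, edgeR called 46% of genes changed 2-fold and 84% of those changed 4-fold, with 6.67% of calls false. DESeq2 called 50% and 80% of them, with 14% of calls false. This was 1 simulated set, drawn from edgeR's own dispersions with independent libraries, so it does not rank the tools on the real counts. DESeq2 1.42.0 was an alternative, beside RLE scaling, no filter, all genes, a replicate block, no doublets, 50 components and each library left out.

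The 10 lists were other AMPK subunits, AMPK regulators, AMPK targets, other ionotropic glutamate receptors, delta receptor partners, S1 genes, S2/S3 genes, proximal injury genes and the 5 genes on each side of Grid1 and of Prkag3. The members and lists were chosen with earlier results of these data known. Named were Grid1, Prkag3, Arntl, list genes called in PCT or PST, AMPK subunits and neighbours tested in PCT, and the 5 genes most like each member by Pearson r, over 8 PCT sums and over classes. Havcr1, the list genes called by DESeq2 alone and the leading genes of clusters were named after their values were seen. Some genes that the rule covers are not reported here.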

Additional observations from a re-analysis of the deposited data

Results flagged for a closer look

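Arntl, the gene that encodes BMAL1, differed in its genotype difference between the times in PCT: cKOt against Ctrl was 4.35 ± 0.26 on the log2 scale at ZT4 (edgeR, adjusted p = 0.000239) and 0.63 ± 0.22 at ZT16 (adjusted p = 0.482), an interaction of -3.72 ± 0.33 (adjusted p = 0.0191). The interaction was -3.71 with a replicate block (adjusted p = 0.0652) and ran from -3.99 to -3.37 with single libraries left out, and its call was lost without Ctrl at ZT4 replicate 1 and without each of the 4 libraries at ZT16.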

How the results depend on the processing

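Leaving single libraries aside, the genotype differences in PCT ran from 1.06 to 1.10 at ZT4 and 2.17 to 2.2 at ZT16 for Grid1, and from -1.96 to -1.86 and -3.29 to -3.20 for Prkag3. The cause of each change below was not tested. With DESeq2 the cKOt time difference of Grid1 passed in PCT (0.84, adjusted p = 0.0138) and over all nuclei (0.73, adjusted p = 0.00112), as did its interaction over all nuclei (1.14, adjusted p = 0.000478). Without doublets the cKOt time difference of Grid1 in PST was -0.016, and with 50 components Prkag3 in PST at ZT16 was -4.27. The near-zero differences of Bmpr1a at ZT16 turned to -0.0023 (DESeq2), -0.0024 (RLE), -0.0028 (all genes), -0.017 (no doublets) and -0.0074 (50 components), and that of Bcs1l at ZT4 to -0.072 (no doublets) and -0.082 (50 components).

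Counts of called genes follow in the order ZT4, ZT16, time in Ctrl, time in cKOt, interaction. In PCT they were 116, 43, 71, 0 and 5, by DESeq2 310, 195, 250, 105 and 35, and with no filter 272, 150, 210, 59 and 16. In PST they were 62, 71, 4, 0 and 0, by DESeq2 107, 143, 29, 1 and 4, and with no filter 349, 443, 185, 95 and 60. Over all nuclei they were 72, 28, 23, 0 and 3, by DESeq2 349, 171, 233, 164 and 48, and with no filter 127, 64, 51, 10 and 10. With all genes, time in cKOt gave 2 calls in PCT and 2 over all nuclei, and time in Ctrl 15 in PST and 44 over all nuclei. Without doublets, time in cKOt gave 1 in PCT and 9 over all nuclei and time in Ctrl 1 in PST, and 50 components gave 1 for time in cKOt PCT. List genes called were 3 at ZT4 and 4 at ZT16 in PCT and 2 at ZT16 in PST by DESeq2, and 3, 3, 2 and 7 with no filter (PCT ZT4, PCT ZT16, PST ZT4, PST ZT16).

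Thinning to 1000 UMIs took the mean share of nuclei with Grid1 from 15.4% to 4.96% (Ctrl) and 36.1% to 13.5% (cKOt) in PCT and from 4.45% to 0.663% and 9.4% to 2.53% in PST, and with Prkag3 from 13.8% to 3.48% and 2.46% to 0.579% in PCT and from 13.9% to 2.41% and 1.1% to 0.193% in PST.

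Same-numbered libraries of the 2 genotypes deviated together in PCT, with r of 0.542 at ZT4 and 0.374 at ZT16. Between the times r was -0.258 in Ctrl and 0.307 in cKOt, and across both genotype and time it was -0.347 to 0.0904. The labels number the replicates without saying that the numbers pair the animals, and the main model held no block. With the replicate block the cKOt time difference of Grid1 in PCT was 0.83 (adjusted p = 0.209) and its interaction 1.10 (adjusted p = 0.382), and Prkag3 in Ctrl PCT was 1.09 (adjusted p = 0.231). The block gave 1 interaction call in PCT, 2 for time in Ctrl PST, and 15, 2 and 0 over all nuclei for time in Ctrl, time in cKOt and interaction. A block with the Ctrl numbers at ZT16 crossed, chosen after seeing the data, gave 211, 104, 183 and 11 calls in PCT for the first 4 contrasts, 125, 165 and 29 in PST for the first 3, and 123, 75, 52 and 14 over all nuclei for the first 4.

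Leaving out 1 library at a time, the lone sample being assumed to vary like the other groups, Grid1 in PST ran from 0.47 to 2.12 at ZT4, -0.93 to 0.56 for time in Ctrl, -0.25 to 0.82 for time in cKOt and -0.36 to 1.29 for the interaction, and over all nuclei from 2.14 to 2.26 at ZT16. Prkag3 ran in PCT from -2.55 to -1.41 at ZT4, -4.14 to -2.68 at ZT16 and -1.15 to 0.46 for time in cKOt, in PST from -4.36 to -2.12 and -4.73 to -4.43, and over all nuclei from -2.51 to -1.26, -3.66 to -2.30 and -0.89 to 0.70. Calls ran in PCT from 35 to 110, 4 to 71, 9 to 112, 0 to 3 and 0 to 3, in PST from 19 to 107, 7 to 148, 0 to 19 and 0 to 2, and over all nuclei from 23 to 70, 8 to 30, 8 to 25, 0 to 4 and 0 to 2. List genes called were 0 to 1 in PCT at both times and in PST at ZT16. Differences that crossed zero in PCT were, at ZT4, Prkaa2 (-0.17 to 0.09), Prkag1 (-0.16 to 0.031), Ldb3 (-0.058 to 0.89), Ccser2 (-0.44 to 0.12), Bcs1l (-0.22 to 0.28) and Ttll4 (-0.17 to 0.34), and at ZT16, Prkaa1 (-0.11 to 0.048), Prkaa2 (-0.19 to 0.26), Prkab1 (-0.067 to 0.56), Bmpr1a (-0.099 to 0.13), Ldb3 (-0.30 to 0.13), Bcs1l (-0.50 to 0.033), Rnf25 (-0.15 to 0.06) and Ttll4 (-0.26 to 0.024).

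Depth limits the Prkag3 fold in PST, where a cKOt library held 3 to 12 UMIs.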
